A study of Mus musculus with 9 samples.

Results

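Mitosis genes were followed through 9 arrays of TAMH cells, a mouse hepatocyte line derived from animals that carry a TGF-alpha transgene. The set held 40 genes, listed by name for their work in cell division. The rule itself used no measured value, but the list was chosen with earlier results of these data known. Of these, 38 were measured by at least 1 probe set (a group of short probes for 1 transcript) that carried a single gene symbol, among 12393 genes measured in all. Expressed genes were those whose mean over the 9 arrays was at or above 5.67, the median of the means of all probe sets. This held for 37 of the 38 members and for 6700 of the 12393 genes. Cdc25b, a phosphatase that activates CDK1, had a mean of 5.32 and is left out of the counts that follow. Cenpe, at 5.72, was the member just above the limit. Ccnb1 and Cdca8 are not analysed here.

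The cells, whose labels give the strain as C57BL/6 and the tissue as liver, received control culture medium, 2 mM acetaminophen (APAP) or 2 mM of its meta isomer (AMAP) for 2, 6 or 24 h. The hydroxyl group of the ring is in the para position in APAP and the meta position in AMAP, and the study's title calls AMAP the less hepatotoxic one. Cells had grown to confluence in 2 dishes for each treatment, and each treatment and time has 1 array. A difference between 2 arrays at 1 time therefore has no replicate check and is given without a p-value. All values are log2 units, on which a difference of 1 is 2-fold.

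A dividing cell makes most of its mitotic proteins anew in each cycle. CDK1 with B-type cyclins starts mitosis, polo-like and Aurora kinases build the spindle, the kinetochore and its checkpoint hold the chromosomes until all are attached, and the anaphase-promoting complex then marks cyclin B and securin for destruction so that the chromosomes part and the cell divides. The genes for these proteins share control. In resting cells the DREAM complex keeps them off through promoter elements called CHR, and in G2 the MuvB core with B-MYB and FOXM1, along with NF-Y on CCAAT boxes, turns them on. Adult hepatocytes rarely divide, whereas a cultured line such as TAMH does.

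RefSeq promoter windows (build GRCm38.p6, 250 bases before to 50 after each annotated start) were present for 33 of the 40 members. A CHR element, written TTTGAA or TTCGAA and counted on both strands, occurred in the window of 26 of the 33 members (78.8%) and of 21.7% of 27025 genes with a window. A CCAAT box, CCAAT on either strand, occurred in 28 (84.8%) and in 41.1%. Both motifs were in the window of 24 members (72.7%), against 8.61% of all genes and 6.90% of the 5534 expressed genes with a window. Nearer the start the contrast was wider: 24 members (72.7%) had a CHR match within 50 bases of it, against 6.12% of all genes. The stretches below show 130 bases on the sense strand of each gene, ending before the annotated gene. They are the 5 members that were at least 2-fold lower with AMAP at 2 h, the mitotic kinase gene Cdk1, and the pair that was higher, with CHR and CCAAT matches (reverse strand included, as TTCAAA and ATTGG) in capitals.
Ube2c, chr2:164769799-164769928, plus strand: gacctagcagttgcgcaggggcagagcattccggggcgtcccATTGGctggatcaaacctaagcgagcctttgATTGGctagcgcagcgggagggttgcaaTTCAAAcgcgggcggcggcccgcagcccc
Kif11, chr19:37376252-37376381, plus strand: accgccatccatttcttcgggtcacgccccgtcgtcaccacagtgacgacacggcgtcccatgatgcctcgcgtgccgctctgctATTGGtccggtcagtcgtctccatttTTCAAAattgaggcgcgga
Cenpf, chr1:189688108-189688237, minus strand: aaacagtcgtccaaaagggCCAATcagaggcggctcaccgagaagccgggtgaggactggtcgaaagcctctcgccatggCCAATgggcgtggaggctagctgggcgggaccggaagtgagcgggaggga
Nusap1, chr2:119618168-119618297, plus strand: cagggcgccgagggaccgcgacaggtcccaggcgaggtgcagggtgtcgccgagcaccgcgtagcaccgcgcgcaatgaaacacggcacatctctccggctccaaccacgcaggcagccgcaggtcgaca
Plk1, chr7:122159305-122159434, plus strand: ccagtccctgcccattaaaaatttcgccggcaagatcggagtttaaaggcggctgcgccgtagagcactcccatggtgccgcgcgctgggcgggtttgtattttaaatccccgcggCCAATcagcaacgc
Cdk1, chr10:69352913-69353042, minus strand: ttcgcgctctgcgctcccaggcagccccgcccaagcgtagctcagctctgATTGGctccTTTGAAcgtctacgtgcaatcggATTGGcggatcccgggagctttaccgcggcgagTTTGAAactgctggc
Gtse1, chr15:85859561-85859690, plus strand: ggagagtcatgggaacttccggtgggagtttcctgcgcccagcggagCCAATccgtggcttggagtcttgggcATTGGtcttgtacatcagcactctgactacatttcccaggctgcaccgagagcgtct
Mad2l1, chr6:66535091-66535220, plus strand: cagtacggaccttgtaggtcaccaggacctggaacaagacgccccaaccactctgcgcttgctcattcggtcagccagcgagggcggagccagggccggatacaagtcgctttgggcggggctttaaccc
Ube2c and Kif11 have a CCAAT box followed by a CHR match 29 and 19 bases before the start. Cdk1 has a pair of each. In Plk1 and Cenpf only CCAAT boxes lie in the stretch, and their CHR matches start at bases 31 and 3 of the transcript. The window of Nusap1 holds neither motif, nor does that of Mad2l1, and the windows of Gtse1 hold CCAAT boxes alone. A match describes letters and not a bound factor.

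**Figure D1:**
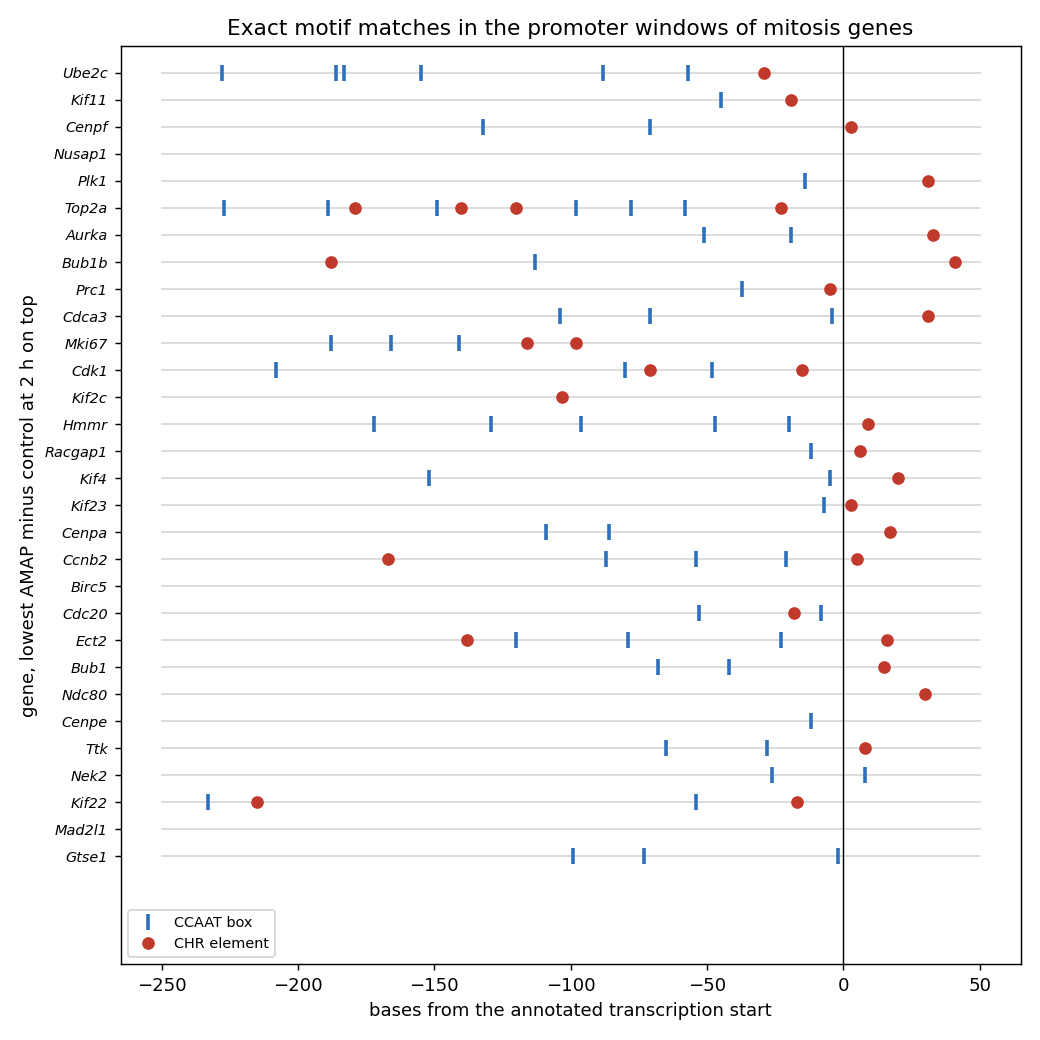
Position of CCAAT boxes (blue bars) and CHR matches (red dots) in the promoter window of each expressed member that has one, in bases from the annotated transcription start, with the gene lowest under AMAP at 2 h on top. CHR matches gather near the start, within 50 bases of it in 24 of the 33 members with a window. Cdc25b and Cdca8 count among the 24 but are not drawn. Genes with 2 windows are drawn with the one at the lower coordinate.

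The cells carried the hepatocyte markers of the label. Of 24 measured hepatocyte markers 23 were expressed, from Alb (albumin, mean 13.06) down to Apoc3 (5.51), which fell short of the limit. None of 9 endothelial markers was expressed, 1 of 11 macrophage markers was (Cd14, 10.12; Cd163 was lowest at 2.78), 1 of 12 stellate cell and fibroblast markers (Dcn, 10.24; Col3a1 was lowest at 2.83) and 4 of 6 cholangiocyte markers (Krt7, 9.35; Aqp1 was lowest at 2.99). The mean over each of these lists lay between 9.62 and 10.14 for hepatocyte markers on the 9 arrays, between 4.21 and 4.68 for macrophage, 4.29 and 4.74 for stellate cell and fibroblast, 3.37 and 3.91 for endothelial and 5.92 and 6.45 for cholangiocyte markers. The APAP arrays of 6 and 24 h and the AMAP array of 24 h stood apart. Their lower quartiles were 3.92, 3.82 and 3.84 in this order, against 3.50 to 3.63 on the other 6. On a control transcript added to the RNA, bacterial dap, the middle probe set minus the 3′ one was -1.72, -1.58 and -1.94 on these arrays, against -0.60 to -0.44 on the others. The 5′ minus 3′ value did not separate them (-1.04, -0.80 and -1.23, against -1.16 to -0.70). In a second group of dap probe sets the middle minus 3′ value did not either (-1.03, -0.42 and -0.73, against -0.80 to -0.61). Its 5′ minus 3′ value did (-2.11, -2.26 and -1.97, against -1.85 to -1.73). For Gapdh, a transcript of the cells themselves, the middle minus 3′ value was higher on them (0.37, 0.30 and 0.36, against 0.10 to 0.24). The 5′ minus 3′ value of Gapdh did not separate them (0.05, 0.10 and 0.25, against 0.21 to 0.29). All 3 arrays at 2 h belong to the other 6, and 5 of the 6 comparisons at 6 and 24 h use 1 or 2 of the arrays that stood apart. Their part in the results was not tested.

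AMAP at 2 h went with lower mitosis genes as a group. Compared with control, 35 of the 37 expressed members were lower and only Gtse1 and Mad2l1 were higher, while 50.9% of all expressed genes were lower. The median difference of the members was -0.47 and that of all expressed genes -0.01. Ube2c, Kif11, Cenpf, Nusap1 and Plk1 were lower by at least 2-fold where the higher array had to reach 5.66, the overall median value. This is 5 of 37 members, against 0.373% of expressed genes. At 1.5-fold the count was 17 of 37, against 2.64%. The AMAP array at 2 h was the lowest of the 9 for 19 of 37 members, against 9.57% of all expressed genes. This count uses 1 probe set per gene. The further expressed probe sets of Aurkb, Kif11, Kif23, Racgap1 and Hmmr were lowest on other arrays. Those of Ccna2, Cdc20 and Prc1 were also lowest on the AMAP array at 2 h, and those of Kif2c parted. Hepatocyte markers were lower on the same array, 19 of 23 with a median of -0.33, and 6 of the 23 by at least 1.5-fold. With APAP at 2 h, where the mitosis genes lay around control, 18 of 23 hepatocyte markers were lower, with a median of -0.37. The part of a shift in hepatocyte markers in the result was not tested.

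**Figure D2:**
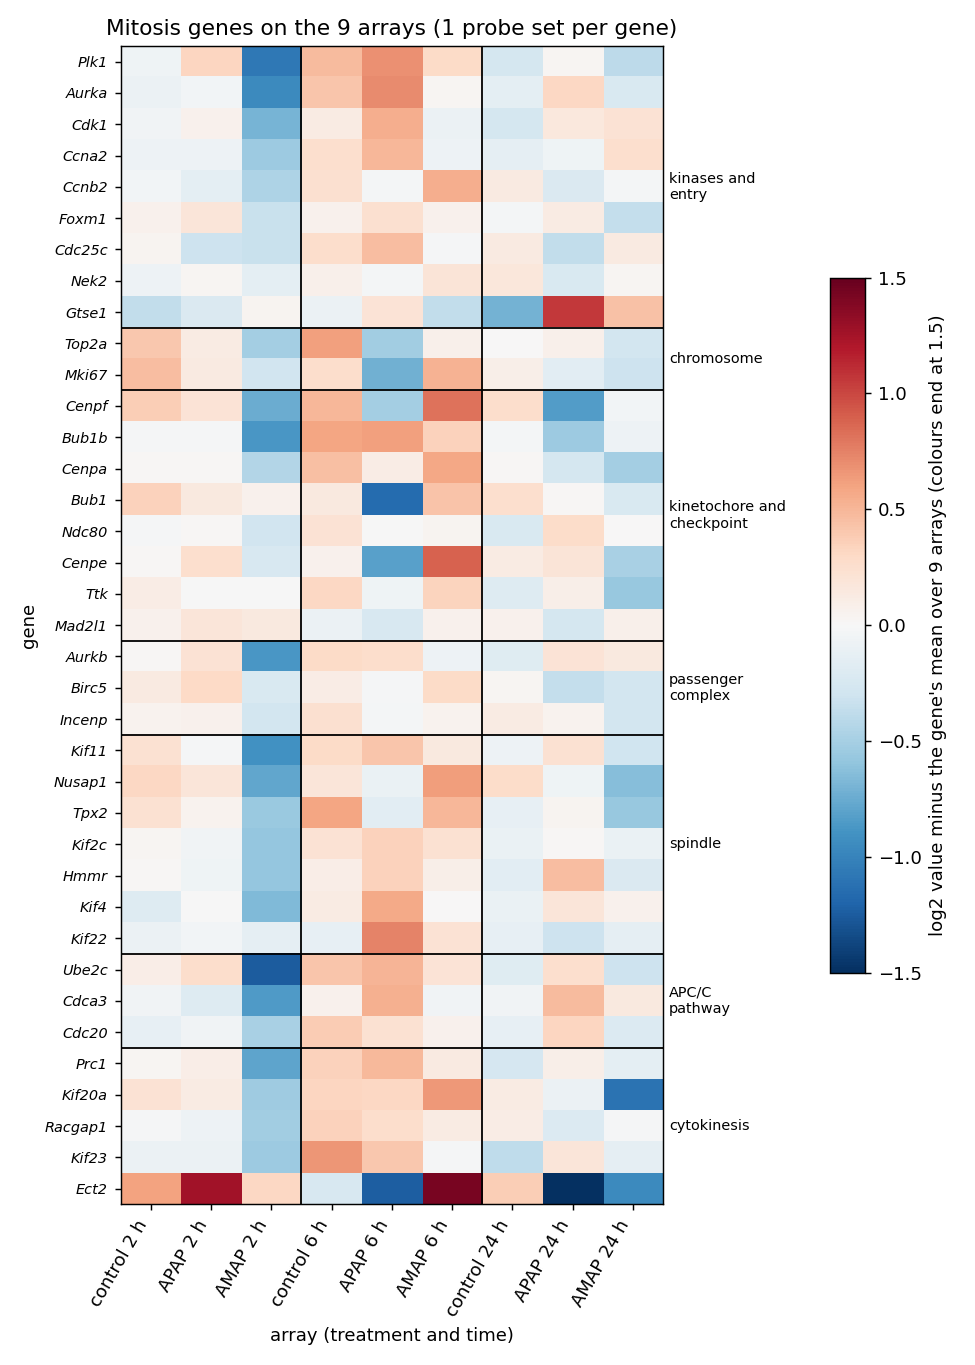
Each expressed mitosis gene (rows, grouped by role) on each of the 9 arrays (columns), coloured by its log2 value minus its own mean over the 9 arrays, with colours ending at 1.5. The column of AMAP at 2 h is mostly blue, with a median deviation of -0.52, and at 6 h 33 members lie above their own mean in control, 30 with AMAP and 22 with APAP.

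Among kinases, cyclins and entry control 8 of 9 expressed members were lower with AMAP at 2 h, with a median of -0.42. In the order control, APAP and AMAP, which is kept from here on, Plk1, the polo-like kinase of spindle assembly, was at 8.42, 8.81 and 7.41 at 2 h, 8.96, 9.17 and 8.77 at 6 h, and 8.22, 8.51 and 8.09 at 24 h. Its AMAP value at 2 h was its lowest of 9, and the difference from control of -1.0 only just reached 2-fold. Aurka, the kinase of the spindle poles, was at 8.48, 8.52 and 7.60 at 2 h, 8.98, 9.27 and 8.59 at 6 h, and 8.42, 8.87 and 8.34 at 24 h. It too was lowest with AMAP at 2 h, with a difference from control of -0.88, and with APAP it was above control at all 3 times. Cdk1, the kinase that starts mitosis, was at 10.02, 10.13 and 9.37 at 2 h, 10.19, 10.61 and 9.98 at 6 h, and 9.80, 10.22 and 10.28 at 24 h. At 2 h it differed from control by -0.64 with AMAP, and at 24 h both compounds lay above control. Ccna2, cyclin A2, was at 10.11, 10.11 and 9.64 at 2 h, 10.44, 10.68 and 10.11 at 6 h, and 10.05, 10.12 and 10.44 at 24 h. Its AMAP value was lowest at 2 h and the highest of the 3 treatments at 24 h. The other members of this group that were lower with AMAP at 2 h were Ccnb2 (cyclin B2), with a difference of -0.42, Foxm1 (the transcription factor of G2 genes), with -0.40, Nek2 (a centrosome kinase), with -0.08, and Cdc25c. Cdc25c, a phosphatase that activates CDK1, was at 6.56, 6.20 and 6.18 at 2 h, 6.78, 6.98 and 6.50 at 6 h, and 6.65, 6.15 and 6.65 at 24 h. Its difference from control at 2 h was -0.35 with APAP, the lowest of the 37 members, and -0.38 with AMAP.

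Gtse1, a microtubule-binding protein made in S and G2 phase, went the other way. It was at 8.01, 8.16 and 8.42 at 2 h, 8.29, 8.58 and 8.0 at 6 h, and 7.67, 9.43 and 8.81 at 24 h. At 2 h AMAP was the highest of the 3 arrays, by 0.41 over control. At 24 h both compounds were over 2-fold above control, by 1.76 with APAP and 1.14 with AMAP.

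Top2a, the topoisomerase that untangles sister chromatids, and Mki67, the proliferation mark that coats mitotic chromosomes, were both lower with AMAP at 2 h. Top2a was at 10.63, 10.36 and 9.72 at 2 h, 10.85, 9.71 and 10.30 at 6 h, and 10.24, 10.30 and 9.96 at 24 h. Its difference at 2 h was -0.91, just short of 2-fold, and with APAP it was -0.27. Mki67 was at 10.68, 10.35 and 9.93 at 2 h, 10.47, 9.49 and 10.74 at 6 h, and 10.30, 10.06 and 9.90 at 24 h. Both compounds lay below control at 2 h, AMAP further, and at 6 h the APAP array was the lowest of the 9.

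Of 8 kinetochore, centromere and spindle checkpoint genes 7 were lower with AMAP at 2 h, with a median of -0.28. Cenpf, a large protein of the outer kinetochore, was at 8.78, 8.62 and 7.67 at 2 h, 8.91, 7.91 and 9.23 at 6 h, and 8.68, 7.58 and 8.38 at 24 h. It was over 2-fold below control with AMAP at 2 h and at least 2-fold below control with APAP at 6 and 24 h, so the array that was lowest differed between times. Bub1b, the BubR1 checkpoint protein, was at 8.25, 8.26 and 7.40 at 2 h, 8.87, 8.89 and 8.62 at 6 h, and 8.25, 7.73 and 8.20 at 24 h. AMAP at 2 h was the lowest array, and APAP at 2 h equalled control to within 0.01. Bub1, the checkpoint kinase, was at 9.12, 8.93 and 8.85 at 2 h, 8.93, 7.63 and 9.21 at 6 h, and 9.03, 8.80 and 8.55 at 24 h. Its difference with AMAP at 2 h was only -0.28, and its low array was APAP at 6 h. Cenpe, a kinesin that moves chromosomes to the spindle equator, was at 5.74, 5.98 and 5.48 at 2 h, 5.78, 4.91 and 6.61 at 6 h, and 5.84, 5.92 and 5.24 at 24 h. AMAP at 6 h was high and APAP at 6 h low. Ttk, the Mps1 checkpoint kinase, was at 8.07, 7.95 and 7.95 at 2 h, 8.26, 7.89 and 8.29 at 6 h, and 7.77, 8.04 and 7.38 at 24 h. The compounds were equal at 2 h and AMAP was lowest at 24 h. Mad2l1, the Mad2 checkpoint protein, was at 10.07, 10.18 and 10.15 at 2 h, 9.92, 9.77 and 10.07 at 6 h, and 10.07, 9.74 and 10.09 at 24 h. All of its 9 values lay within 0.44, and at 2 h both compounds were slightly above control. Cenpa (the centromeric histone), with -0.46, and Ndc80 (the microtubule coupler), with -0.28, were lower with AMAP at 2 h.

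The chromosomal passenger complex corrects faulty attachments and then acts in cytokinesis. Its 3 expressed members were lower with AMAP at 2 h. Its kinase Aurkb was at 8.23, 8.42 and 7.33 at 2 h, 8.50, 8.47 and 8.14 at 6 h, and 8.02, 8.41 and 8.35 at 24 h. The difference was -0.90, while APAP lay 0.19 above control. Birc5 (survivin) differed by -0.37 and Incenp (the scaffold) by -0.33.

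All 7 spindle motors and microtubule proteins were lower with AMAP at 2 h, with a median of -0.62. Kif11, the motor that pushes spindle poles apart, was at 7.53, 7.27 and 6.39 at 2 h, 7.58, 7.70 and 7.44 at 6 h, and 7.21, 7.52 and 7.0 at 24 h. By this probe set AMAP at 2 h was its lowest array. Its other expressed probe sets were lowest with APAP at 6 h (6.59) and with AMAP at 24 h (4.86). Nusap1, which bundles spindle microtubules, was at 8.92, 8.80 and 7.83 at 2 h, 8.80, 8.51 and 9.24 at 6 h, and 8.88, 8.54 and 7.97 at 24 h. AMAP was low at 2 h and again at 24 h, and high at 6 h. Hmmr, a spindle assembly factor, was at 9.13, 9.05 and 8.54 at 2 h, 9.22, 9.46 and 9.20 at 6 h, and 8.96, 9.58 and 8.90 at 24 h. By this probe set AMAP was lowest at 2 h and APAP highest at 24 h. Kif4, a chromosome-bound kinesin, was at 7.70, 7.88 and 7.22 at 2 h, 8.01, 8.46 and 7.89 at 6 h, and 7.79, 8.06 and 7.95 at 24 h. It was lowest with AMAP at 2 h and highest with APAP at 6 h. Kif22, another chromosome-bound kinesin, was at 9.71, 9.77 and 9.67 at 2 h, 9.68, 10.56 and 10.02 at 6 h, and 9.69, 9.49 and 9.67 at 24 h. By this probe set the 3 arrays at 2 h lay within 0.10 of each other, and APAP at 6 h was the high one. By its 2 other expressed probe sets AMAP minus control at 2 h was -0.66 in both. Tpx2 (an activator of Aurora A) differed by -0.79 and Kif2c (a microtubule depolymerase) by -0.62.

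In the anaphase-promoting complex pathway all 3 members were lower. Ube2c, the ubiquitin-conjugating enzyme of the complex, had the largest difference of the 37 members. It was at 10.23, 10.39 and 8.88 at 2 h, 10.54, 10.63 and 10.33 at 6 h, and 9.95, 10.38 and 9.81 at 24 h. Apart from the AMAP array at 2 h, its 8 other values lay between 9.81 and 10.63. The difference at 2 h, -1.35, is 2.55-fold. Cdca3, a trigger of mitotic entry through degradation of Wee1, was at 9.40, 9.26 and 8.60 at 2 h, 9.52, 9.99 and 9.40 at 6 h, and 9.40, 9.93 and 9.60 at 24 h. AMAP at 2 h was the low array and APAP was highest at 6 and 24 h. Cdc20, the activator that the checkpoint holds back, differed by -0.36.

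All 5 central spindle and cytokinesis genes were lower with AMAP at 2 h, with a median of -0.51. Prc1, which bundles the antiparallel microtubules of the central spindle, had the largest difference, -0.82. Kif20a, a kinesin of the cleavage furrow, was at 8.86, 8.77 and 8.12 at 2 h, 8.97, 8.96 and 9.30 at 6 h, and 8.77, 8.56 and 7.55 at 24 h. AMAP was lowest at 2 h and, further, at 24 h, but highest at 6 h. Kif23, the motor of the centralspindlin complex, was at 9.21, 9.21 and 8.75 at 2 h, 9.96, 9.70 and 9.28 at 6 h, and 8.91, 9.48 and 9.16 at 24 h. By this probe set both compounds were below a high control value at 6 h. By its other expressed probe set the differences from control at 6 h were 0.60 with AMAP and -1.04 with APAP. Its partner Racgap1 differed by -0.51 at 2 h. Ect2, the exchange factor that activates RhoA for furrowing (chr3:27097222-27154253), was at 7.34, 7.99 and 7.04 at 2 h, 6.49, 5.50 and 8.15 at 6 h, and 7.10, 5.21 and 5.78 at 24 h. Its range of 2.95 over the 9 arrays was the widest of the 37 members, and it was the member with the most uneven pattern, with AMAP below control at 2 and 24 h and above it at 6 h.

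With APAP at 2 h the members lay around control: 15 members were lower and 19 higher, where 52.0% of expressed genes were lower. Their median was 0.01, and no member reached 2-fold. Ect2 alone passed 1.5-fold, at 0.65, against 3.75% of expressed genes that were higher by as much. Plk1 (0.39) and Cenpe (0.24) followed, and Cdc25c, Mki67 and Top2a were lowest. Set directly against AMAP, APAP was higher for 35 of 37 members, equal for Ttk and lower for Gtse1 (-0.26), with a median of 0.52. It was higher for 3125 of 6700 expressed genes. Ube2c (1.51), Plk1 (1.39) and Aurkb (1.09) were at least 2-fold higher, 3 of 37 against 0.403% of expressed genes, and 16 were at least 1.5-fold higher against 2.55%. The 2 comparisons with AMAP share its 1 array at 2 h.

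**Figure D3:**
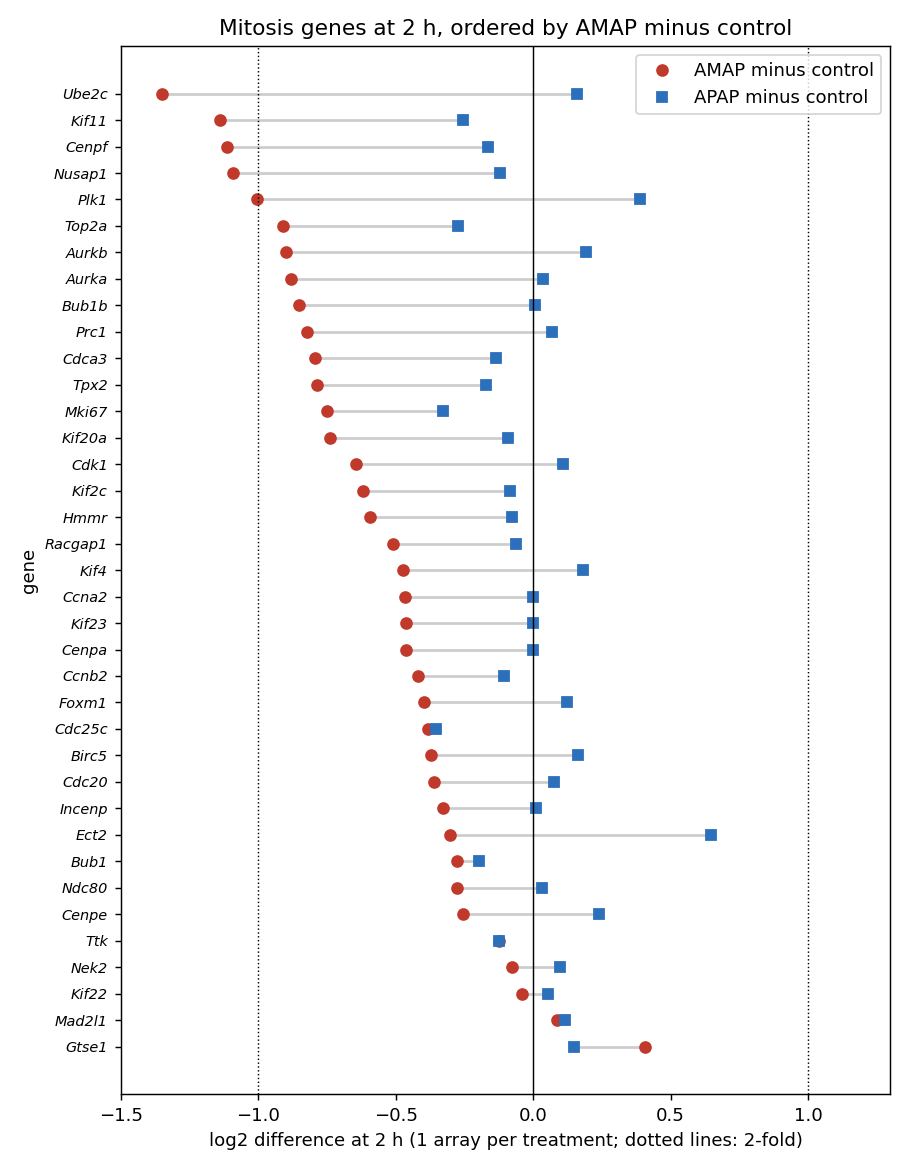
Log2 difference from the control array at 2 h for AMAP (red circles) and APAP (blue squares), 1 array per treatment, for the 37 expressed mitosis genes ordered by the AMAP difference. The AMAP points run from -1.35 for Ube2c to 0.41 for Gtse1, and the APAP points lie around 0, from -0.35 to 0.65.

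A second look came from the other probe sets of the same genes. They read the same RNA on the same arrays, so they cannot check a shift of a whole array. The 38 measured members had 68 probe sets in all, and 13 expressed members had 21 further probe sets that were themselves expressed. At 2 h all 21 were lower with AMAP than control, with a median of -0.54, and all 21 were lower with AMAP than APAP. None was 2-fold lower and 9 were 1.5-fold lower. For Hmmr, with 4 probe sets, the differences from control were -0.59 for the one used above and -0.81, -0.63 and -0.52 for the others. For Kif11 they were -1.14, and -0.87 and -0.60 for the others. For Tpx2 they were -0.79 and -0.07, the widest gap between 2 probe sets of a gene at 2 h. For APAP against control 13 of the 21 had the direction of the first probe set, where a first probe set at 0 (Ccna2 and Kif23) counted as not shared.

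At 6 and 24 h the probe sets of a gene parted. The direction of the first probe set recurred in 8 of 21 further probe sets for AMAP against control at 6 h, 7 for APAP against control and 4 for APAP against AMAP, and in 12, 11 and 17 at 24 h. Of 13 genes with several probe sets, 11, 8 and 12 lacked a direction common to all at 6 h in these 3 comparisons. A difference of 0 counted as no direction, as for the first probe set of Foxm1 with AMAP against control. Aurkb had 8.50 in control and 8.47 with APAP at 6 h by its first probe set, and 7.19 and 4.99 by its second. Single-gene values at 2, 6 and 24 h for genes with 1 expressed probe set lack such a check. Ect2, Gtse1, Ube2c, Plk1, Cenpf and Nusap1 are among these genes.

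**Figure D4:**
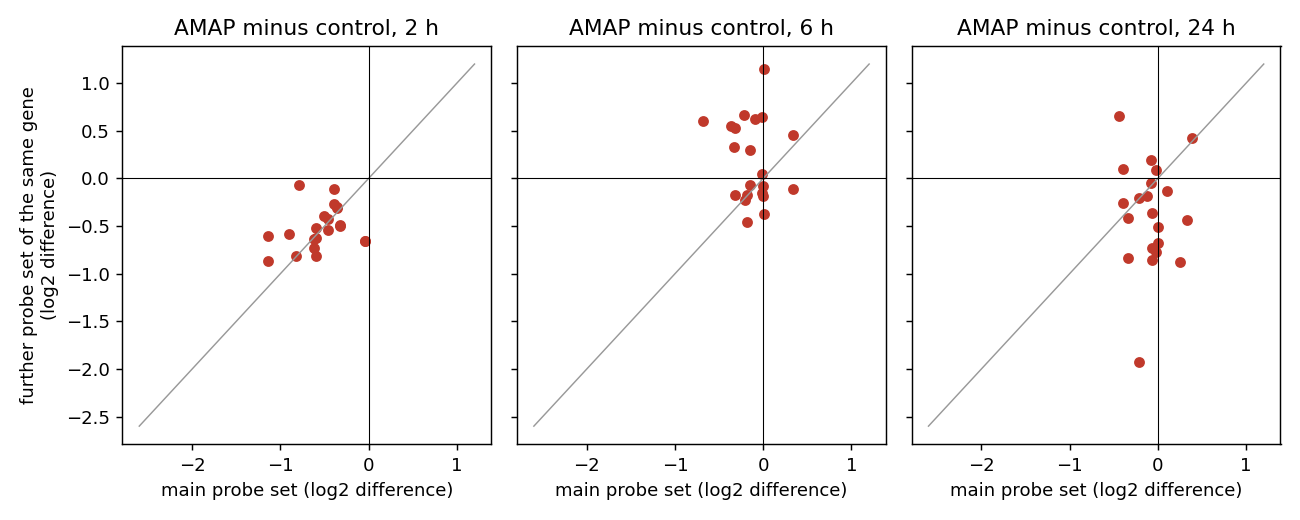
Log2 difference between AMAP and control of the 21 further expressed probe sets (vertical axis) against that of the first probe set of the same gene (horizontal axis) at 2, 6 and 24 h, 1 array per treatment, with the line of equality. At 2 h all points lie below 0 on both axes, and at 6 h only 8 of 21 share the direction of the first probe set.

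At 6 h the members lay near the other genes. The median difference from control was -0.12 for AMAP (-0.10 for all expressed genes) and -0.08 for APAP (-0.05), and APAP minus AMAP had a median of 0.14 (0.07). With AMAP 1 member was 2-fold higher than control, Ect2 at 1.66, against 0.925% of expressed genes. Cenpe (0.83) and Nusap1 (0.44) came next, and Kif23 (-0.68), Top2a (-0.55) and Aurka (-0.40) were lowest. The second expressed probe set of Kif23 gave 0.60. With APAP 3 members were at least 2-fold below control, Bub1 (-1.30), Top2a (-1.14) and Cenpf (-1.0), with Ect2 just short of it. This is close to the 5.24% of expressed genes that were as low. Kif22 (0.88), Cdca3 (0.47) and Kif4 (0.45) were highest. Against AMAP, APAP was at least 2-fold lower for 5 members, Ect2 (-2.66), Cenpe (-1.70), Bub1 (-1.58), Cenpf (-1.32) and Mki67 (-1.25), where 7.73% of expressed genes were. Aurka (0.68), Cdk1 (0.63) and Cdca3 (0.59) were highest.

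At 24 h 26 of 37 members were lower with AMAP than control, against 39.1% of expressed genes. The median was -0.13 against 0.10 for the expressed genes as a whole. Ect2 (-1.31) and Kif20a (-1.22) were at least 2-fold lower, against 2.64% of expressed genes, and Nusap1 followed at -0.91. Gtse1 was 2-fold higher, against 0.522%, and Cdk1 (0.48) and Ccna2 (0.39) came next. With APAP the median was 0.08 (0.12 for all expressed genes). Ect2 (-1.89) and Cenpf (-1.10) were at least 2-fold lower, against 3.85%, with Bub1b next at -0.52. Gtse1 was 2-fold higher, against 2.76%, followed by Hmmr (0.62) and Kif23 (0.57). Their other expressed probe sets gave -0.02, -0.21 and 0.005 for Hmmr and -0.57 for Kif23. For APAP minus AMAP the median was 0.25 (0.02), and 25 of 37 members were higher, as were 3500 of 6700 expressed genes. Kif20a was 2-fold higher at 1.02, against 1.46%, but no member was once each array was centred on its median. It was followed by Cenpe (0.68) and Hmmr (0.68), and Cenpf (-0.80), Ect2 (-0.58) and Cdc25c (-0.50) were lowest.

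**Figure D5:**
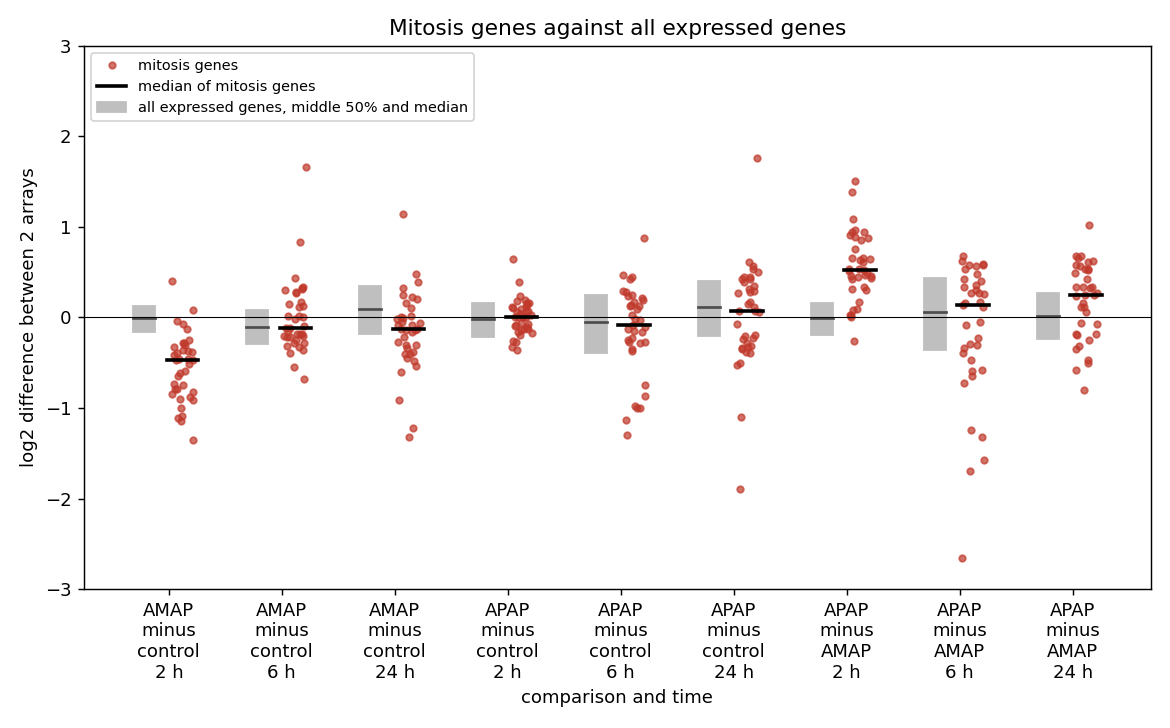
Log2 difference between 2 arrays for each expressed mitosis gene (dots) in the 9 comparisons, with the members' median (black bar) beside the middle 50% and median of all expressed genes (grey). The members' median leaves the grey box at 2 h for AMAP against control (-0.47) and APAP against AMAP (0.52), and lies inside it in the other 7 comparisons.

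Within a treatment, 35 of 37 members were higher at 6 h than at 2 h with AMAP, as were 3112 of 6700 expressed genes. The members' median was 0.67 against -0.01 for the expressed genes as a whole. This comparison uses the same 1 AMAP array at 2 h as those above. In control medium, 29 of 37 were higher at 6 h (4029 of 6700), with a median of 0.19 (0.07 for all expressed genes). With APAP 23 were (3586 of 6700), with a median of 0.19 (0.05). From 6 to 24 h the medians were -0.34 with AMAP (0.10 for all expressed genes), -0.26 in control (-0.09) and -0.20 with APAP (0.05). Plk1, for example, was 0.54 higher at 6 h than at 2 h in control and 1.36 higher with AMAP.

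For effects shared by the 3 times, a limma model of treatment with a block for time was fitted to the 9 arrays, in which a difference at 1 time counts as error. With Benjamini-Hochberg adjustment over 6700 genes, 0 genes (0%) passed an adjusted p of 0.05 in each of the 3 contrasts between treatments. At an unadjusted p under 0.05 stood 2 of 37 members for AMAP against control (0.448% of all genes), 9 for APAP against AMAP (4.25%) and 1 for APAP against control (7.67%). The 9 became 2 (5.22% of all genes) without the 2 h arrays, 10 (3.09%) without the 6 h arrays and 9 (6.03%) without the 24 h arrays. The count was 4 (4.42%) without the time block and 5 (4.12%) with the mean of all probe sets. Averaged over the times Aurka was higher with APAP than AMAP by 0.71 (SE 0.19, 95% interval 0.28 to 1.14, limma adjusted p = 0.869), and higher at each of the 3 times. Plk1 was higher by 0.74 (interval 0.22 to 1.25) and Ube2c by 0.79 (interval 0.20 to 1.39), at the same adjusted p. Mad2l1 differed by -0.21 between APAP and AMAP, with an interval from -0.59 to 0.18. Gtse1 was higher with APAP than control by 0.74 (interval 0.02 to 1.45, limma adjusted p = 0.633). In a fit of slopes on log2 time, 0 genes (0%) passed in each contrast, with 230, 66 and 134 of 6700 at an unadjusted p under 0.05 for APAP against control, AMAP against control and APAP against AMAP.

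The promoter split of the members at 2 h is given as a description. It leaves out Cdc25c, Foxm1, Tpx2, Ccna2, Aurkb, Kif20a and Incenp, which are expressed but have no window. All of these were lower with AMAP than control, from -0.90 (Aurkb) to -0.33 (Incenp). The 24 expressed members with a CHR match anywhere in the window were all lower with AMAP than control, with a median of -0.61. Of the 6 without one 4 were lower, with a median of -0.17, and among them Nusap1 was over 2-fold lower. Expressed genes outside the set are set beside them, those with a match by a narrower rule than the members. The 220 with a CHR match within 50 bases of the start had a median of -0.04 with 55.9% lower. The 4647 without a CHR match in the window had a median of 0.00 with 50.5% lower.

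Other lists of the division cycle had medians nearer 0 at 2 h with AMAP than the -0.33 of the hepatocyte markers and the -0.47 of the members. Spindle and cytokinesis genes outside the set were lower in 21 of 29 cases with a median of -0.19. Aspm, a spindle pole protein, was at 8.51, 8.32 and 7.20 at 2 h, 8.62, 8.25 and 9.05 at 6 h, and 8.21, 7.49 and 7.67 at 24 h, and its difference at 2 h, -1.30, was the only one of these past 2-fold, while Wee1, the kinase that restrains CDK1, differed by -0.73. Condensin and cohesin genes were lower in 13 of 16 with a median of -0.17, led by the condensin subunits Ncapd2 (-0.66) and Ncapg (-0.27). Genes of the anaphase-promoting complex core were lower in 10 of 15 with a median of -0.13, led by its activator Fzr1 (-0.65) and subunit Anapc13 (-0.37). Other kinetochore and checkpoint genes split 11 lower to 9 higher with a median of -0.07, with Bub3 at -0.48 and Spdl1 at -0.40. DNA replication and G1/S genes split 20 lower to 22 higher of 44 with a median of 0.00, none past 1.5-fold, and the licensing factor Cdc6 (0.52) and the ribonucleotide reductase subunit Rrm2 (0.42) had the largest differences. DREAM, MuvB and E2F genes split 8 to 8 of 17, with the NF-Y subunit Nfyb at 1.05 and the pocket protein Rbl1 at -0.61.

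Several cell cycle inhibitors were higher on the same array. Of 15 expressed, 8 were higher with AMAP at 2 h, 6 of them by at least 2-fold against 1.24% of expressed genes, with a median of 0.29. Cdkn1a, the CDK inhibitor p21, was at 8.67, 9.22 and 10.35 at 2 h, 9.17, 9.57 and 8.58 at 6 h, and 9.43, 10.85 and 10.37 at 24 h. AMAP was the highest of the 3 arrays at 2 h, by 1.68 over control, below control at 6 h, and both compounds were above control at 24 h. Gadd45g, a stress-induced growth arrest gene, was 1.98 above control at 2 h. With APAP at 2 h Cdkn1a was 0.55 above control.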

How the data were processed

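RNA of TAMH cells was hybridised to 9 Affymetrix mouse 430A_2 arrays, 1 per treatment and time. Per the submitters' processing notes, the deposited log2 values per probe set came from RMA and Affymetrix Expression Console, whose version is not given in the sources used here. Because RMA gives probe intensities one distribution, it hides a shift in total RNA. Of 22690 probe sets, 64 were controls, and the platform annotation gave 1 gene symbol to 20380, several to 691 and none to 1555. A gene was represented by its probe set of 1 symbol with the highest mean. Groups came from the sample titles. Differences of 2 arrays were counted at 2-fold where the higher array reached 5.66. The fits used limma 3.58.1 in R 4.3.3, with 4 residual degrees of freedom for shared effects and 2 for slopes, and were tested on simulated data. Members with the 3 lowest and 3 highest differences in each comparison, and those 2-fold apart in any, are named with all 9 values. Of other lists, up to 2 genes with the largest difference between AMAP and control at 2 h are named, with Cdkn1a, and of cell type lists the highest and lowest. The members and lists were chosen with earlier results of these data known. Promoter sequences are from RefSeq, GRCm38.p6. The alternatives were a 1.5-fold threshold, no filter, other probe sets, other scalings, other fits and leaving out each time.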

Additional observations from a re-analysis of the deposited data

Results flagged for a closer look

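Ect2, the exchange factor for RhoA in cytokinesis, differed from control in opposite directions under AMAP, by 1.66 at 6 h and by -1.31 at 24 h. This change of sign is between single arrays, and the difference between the times was not tested. Ect2 has 1 probe set here. The AMAP array at 24 h is 1 of the 3 whose lower quartile and first middle minus 3′ dap value stood apart. Its part in the Ect2 value was not tested.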

How the results depend on the processing

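With 1 array per group no replicate could be left out. The treatments are paired by time through the time block, and 0 genes passed without that block too. At 2 h the members' median kept its direction under all 5 alternatives run on it (no filter, mean of all probe sets, further probe sets only, median centring, cyclic loess), between -0.54 and -0.45 for AMAP minus control and between 0.51 and 0.59 for APAP minus AMAP. The count of members 2-fold lower with AMAP at 2 h was 5, 17 at 1.5-fold, 2 with the mean of all probe sets and 0 with further probe sets only. Results with further probe sets only cover just the 13 members that have an expressed one, and of the 5 only Kif11 does. The mean of all probe sets takes in those below the expression limit, such as the second ones of Cenpf (mean 4.67) and Nusap1 (3.89). At 6 h the median for AMAP minus control was 0.18 with further probe sets only, that for APAP minus control was -0.37, and that for APAP minus AMAP was -0.60, or -0.23 with the mean of all probe sets. The 6 h values thus depend on the choice of probe set, and the cause was not tested. At 24 h the median for APAP minus control, 0.08, was -0.05 with further probe sets only and -0.06 with median centring, and the count of members 2-fold higher for APAP minus AMAP went from 1 to 0 with median centring, 2 with further probe sets only and 6 at 1.5-fold. No alternative fit gave a call. Without the 2 h arrays the members' median for AMAP against control in the shared fit was -0.07, without the 6 h arrays -0.34 and without the 24 h arrays -0.31, against -0.25 with all. For APAP against AMAP the median was 0.12, 0.35 and 0.25 in this order, against 0.22 with all. The number of arrays limits the precision.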
